A study of Mus musculus with 7 samples.

Results

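The genes described here are 42 genes of ribosome biogenesis and RNA polymerase I (Pol I). They are part of the 49382 gene rows measured in mouse embryonic fibroblasts (MEFs) under stress. They were chosen by gene symbol for their known function, with earlier results of these data known. Each of the 42 had 1 row and all 42 passed a filter on low expression (a mean of at least 2 TPM over all libraries), which kept 12909 genes. The MEFs were wild type primary fibroblasts from mid-gestation mouse embryos, stripped of head and liver. Their labels give E13.5-E14.4 and passages p3-p7, while the study's methods give ranges with slightly different ends and describe a sort against macrophages that the labels do not mention. They are a mixed isolate and not a clone, and how many embryos went into each library is not given in the sources used here. Polyadenylated RNA was sequenced from 7 libraries, 1 per condition: untreated control cells, cells without glucose for 10 hours (glucose depletion), cells without glutamine for 10 hours (glutamine depletion), cells in 0.1% oxygen for 10 hours (hypoxia), cells with 1 μM thapsigargin for 10 hours (ER stress), cells with 10 μM sodium arsenite for 3 hours (oxidative stress), and cells with 100 mM NaCl for 3 hours (osmotic stress). Thapsigargin blocks the calcium pump of the endoplasmic reticulum (ER), and arsenite reacts with cellular thiols.

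Ribosomes are built in the nucleolus. Pol I copies the ribosomal DNA repeats into a long precursor RNA, small nucleolar RNPs (snoRNPs) guide its chemical modification and cleavage, and assembly factors fold and trim it into the small (40S) and large (60S) subunits before export. It is among the costliest tasks of a growing cell, and its protein genes are known targets of the transcription factor Myc, which binds the E-box CACGTG with its partner Max.

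Values are TPM, the share of each gene in a library scaled to a common total, as the authors deposited them. TPM keeps no read counts, so the depth of the libraries is unknown, and a library with fewer cells of a type cannot be told apart from one with less RNA per cell. Each condition had a single library, so the error between cultures is unknown, no test was made and differences are described by their size. Changes are differences of log2(TPM + 1) from the control library, a scale that understates the change of genes at low levels, and a gene is said to have risen or fallen when it moved by more than 2-fold on that scale. All 6 comparisons use the same control library. A known target of each treatment moved by more than 2-fold in it: the ER chaperone Hspa5 went from 1165 TPM in the control to 12611 TPM in ER stress, the hypoxia target Bnip3 from 26.7 to 797 TPM, heme oxygenase Hmox1 from 266 to 6055 TPM in oxidative stress, and aldose reductase Akr1b3 from 90.5 to 575 TPM in osmotic stress. Txnip, a glucose-responsive gene, went from 70.7 to 16.1 TPM in glucose depletion, and Chac1, a target of the amino acid response, from 26.2 to 86.8 TPM in glutamine depletion. Some of these genes also moved in other conditions. Txnip was at 7.22 TPM in osmotic stress, Chac1 at 224 TPM in ER stress and 69.7 TPM in oxidative stress, and Hmox1 at 1802 TPM in ER stress. Chac1 was at 4.28 TPM in osmotic stress. Fibroblast collagen genes were abundant in each library (Col1a1 at 1739.9 to 3629 TPM), while of the macrophage markers Ptprc and Adgre1 were at 0.28 TPM or less, Csf1r and Tyrobp at 2.25 TPM or less and Cd68 at 5.26 to 9.77 TPM. Of the endothelial markers, Pecam1, Cdh5 and Tek reached at most 1.94 TPM and Kdr lay between 1.92 and 4.23 TPM. The erythroid markers reached at most 0.787 TPM. Of the epithelial markers, Epcam, Cdh1 and Krt8 reached at most 1.0 TPM, but Krt18 lay between 3.57 and 10.6 TPM and was above the control in ER stress (0.82) and below it in hypoxia (-0.52), as the members were, and its part in their values was not tested.

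The promoters of the members were searched for CACGTG, which reads the same on both strands, because Myc is the textbook regulator of these genes and changed its own level between the libraries. RefSeq promoter sequences (GRCm38.p6, from 250 bases before to 50 bases after a start site) were at hand for 37 of the 42 members, and 10 of these 37 (27.0%) held the motif. It was present in 12 of 71 genes (16.9%) of a wider list of ribosome biogenesis factors, in 6 of 58 cytosolic ribosomal protein genes (10.3%) and in 1080 of 8822 protein-coding genes kept by the filter (12.2%). Those shares count a gene as a match when any of its promoters held the motif. Counted by promoter, 10 of 45 member promoters (22.2%) held it, beside 10.2% of promoters of kept protein-coding genes and 7.15% of all 32851 promoters. The 30 bases around each match are shown on the strand of the gene, with the motif in capitals.

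Ltv1: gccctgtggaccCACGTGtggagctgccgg
Nle1: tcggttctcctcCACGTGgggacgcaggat
Nop2: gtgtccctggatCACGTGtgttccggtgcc
Pes1: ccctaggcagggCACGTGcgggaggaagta
Rrn3, upstream match: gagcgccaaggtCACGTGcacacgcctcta
Rrn3, downstream match: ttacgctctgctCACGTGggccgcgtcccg
Tsr1: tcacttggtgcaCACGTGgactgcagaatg
Utp18: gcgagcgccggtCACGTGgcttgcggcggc
Utp20: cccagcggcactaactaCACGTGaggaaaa
Utp4: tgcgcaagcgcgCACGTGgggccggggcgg
Wdr43: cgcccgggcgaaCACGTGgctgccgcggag

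In 7 of the 10 members the motif lay within the 50 bases after the start site. Its first base was 3 bases after the start in Pes1 (chr11:3963965-3963994, plus strand), 16 in Utp4 (chr8:106893643-106893672, plus), 18 in Wdr43 (chr17:71616220-71616249, plus) and 24 in Nle1 (chr11:82908355-82908384, minus). It was 25 bases after the start in Tsr1 (chr11:74898092-74898121, plus), 29 in Ltv1 (chr10:13193092-13193121, minus) and 38 in Utp20 (chr10:88826765-88826794, minus). The other 3 members held it upstream, in Nop2 (chr6:125131811-125131840, plus), in Utp18 (chr11:93885769-93885798, minus) and at both matches of Rrn3 (chr16:13780472-13780501 and chr16:13780639-13780668, plus). Of the remaining 27 members with a sequence, none held these 6 letters in the window, which says nothing about binding elsewhere. A match is a description of the sequence, not a binding site or a cause of any change described here.

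In the control the members ranged from 11.7 TPM for Rrp12 to 1541 TPM for Npm1. Their TPM summed to 4385 in the control, 4921 in both glucose and glutamine depletion, 3262 in hypoxia, 7843 in ER stress, 3805 in oxidative stress and 4184 in osmotic stress. The sum was therefore 1.79 times the control in ER stress and 0.744 times in hypoxia. Without the most abundant member, Npm1, these ratios were 1.90 and 0.669. The 79 cytosolic ribosomal protein genes, which encode the proteins of the finished ribosome, summed to 102436 TPM in the control and stayed between 0.936 and 1.1 times that value in the 6 conditions.

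ER stress was the condition in which the members were highest. All 42 were above the control, where 49.9% of the 12909 kept genes were, and 19 (45.2%) rose by more than 2-fold, beside 8.6% of kept genes. None fell, beside 11% of kept genes. Their median log2 change was 0.91, while that of all kept genes was 0.00. At 1.5-fold, 33 members were past the threshold, beside 19% of kept genes. Hypoxia was the condition in which most members were lowest. There 40 members were below the control, beside 55.5% of kept genes, and the median change was -0.58, beside -0.05 for kept genes. Only 3 fell by more than 2-fold (7.14%, beside 2.64% of kept genes), and none rose (3.57%), but 20 were past 1.5-fold downward, beside 8.1% of kept genes.

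**Figure D1:**
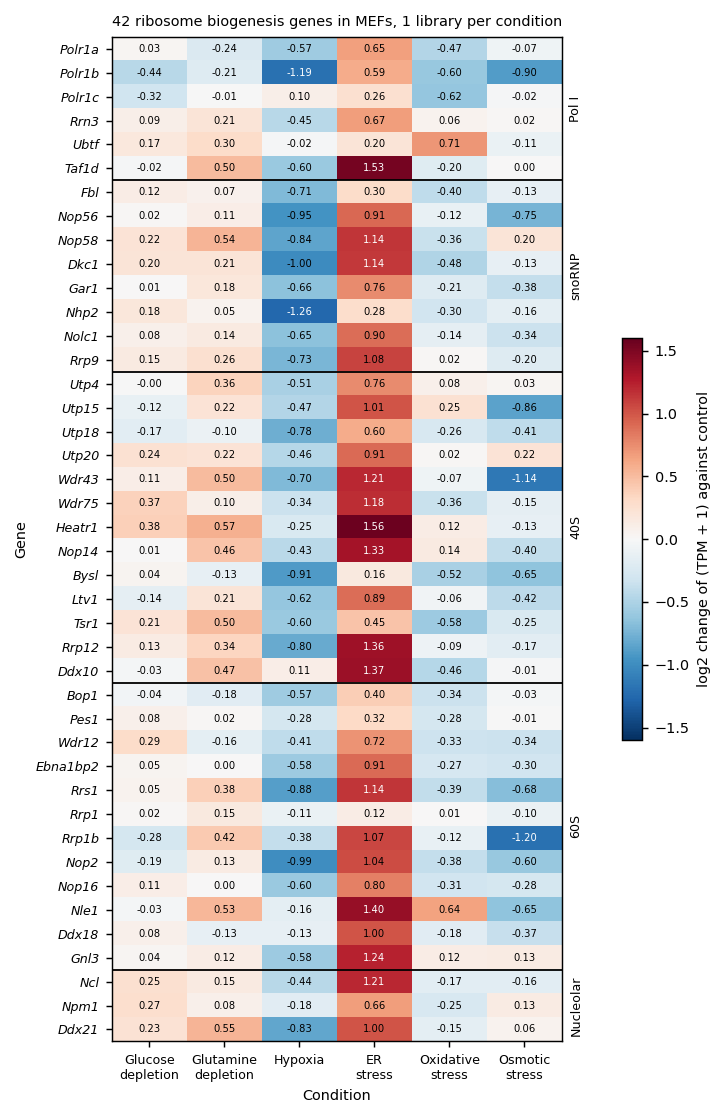
The log2 change of TPM + 1 against the control library for each of the 42 members (rows, grouped by role) in the 6 conditions (columns), 1 library each. The ER stress column holds values from 0.12 (Rrp1) to 1.56 (Heatr1), all above 0, and the hypoxia column holds 40 values below 0.

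Of the 42 members, 39 had their highest TPM of the 7 libraries in ER stress. The exceptions were Rrp1 and Tsr1, highest in glutamine depletion, and Ubtf, highest in oxidative stress. Hypoxia was the lowest library for 32 members, osmotic stress for 6 and oxidative stress for 4. The highest and lowest libraries were not counted over all kept genes, so these counts describe the members only. ER stress moved many kept genes past 2-fold (8.6% up and 11% down). Past 2-fold in at least 1 condition were 21 members, beside 34.4% of kept genes. Past 1.5-fold in at least 1 were all but 3 members (Bop1, Pes1 and Rrp1, of the 60S pathway), beside 66.8% of kept genes.

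Set directly against hypoxia, a comparison of treatments of equal length that does not use the control library, ER stress was higher for all 42 members, where 52% of kept genes were. The pair was chosen after these had been seen as the members' highest and lowest conditions. For the 40 members above the control in ER stress and below it in hypoxia, this direction was already set. The comparison is therefore a description and no separate support. The difference was more than 2-fold for 36 members (85.7%), beside 10.9% of kept genes (and 11.5% of kept genes, but no member, were lower by as much), with a median of 1.48 beside 0.04. It ran from 0.16 for Polr1c to 2.16 for Rrp12. The 6 members within 2-fold were Polr1c, Ubtf, Rrp1, Pes1, Npm1 and Bop1.

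**Figure D2:**
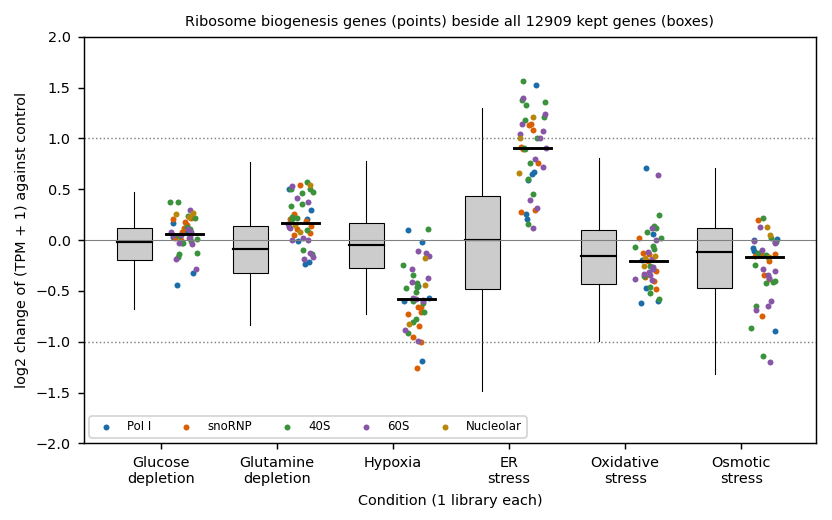
The log2 change of TPM + 1 against the control for the members (points, coloured by role) beside all 12909 kept genes (boxes) in each condition, 1 library each. The members lie above the median of all genes in ER stress, 42 of 42, and below it in hypoxia, 39 of 42, and overlap it in the other conditions.

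All 6 members that make up Pol I and its initiation factors were above the control in ER stress, where 49.9% of kept genes were. In hypoxia 5 of them were below it, beside 55.5% of kept genes, and in the other conditions they differed. Polr1a, the largest catalytic subunit, was at 31.0 TPM in the control, 31.7 in glucose depletion, 26.2 in glutamine depletion, 20.6 in hypoxia, 49.5 in ER stress, 22.1 in oxidative stress and 29.5 in osmotic stress. Polr1b, the other large subunit that forms the active site, was at 17.2, 12.4, 14.7, 6.98, 26.4, 11 and 8.77 TPM in the same order of libraries. Polr1a was outside 1.5-fold in ER stress alone (0.65), whereas Polr1b fell in hypoxia (-1.19), was low in osmotic stress (-0.90) and was below the control in every condition but ER stress (0.59). It was the lowest of the 42 members in glucose depletion (-0.44). Polr1c, a subunit shared with RNA polymerase III, was at 49.4, 39.3, 49.1, 52.9, 59.2, 31.7 and 48.8 TPM. Unlike the large subunits it was slightly above the control in hypoxia (0.10), and it was the lowest member in oxidative stress (-0.62).

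Rrn3, which joins Pol I to the factors at its promoter, was at 31.9 TPM in the control, 34.1 and 37.0 in glucose and glutamine depletion, 23.1 in hypoxia, 51.3 in ER stress, 33.2 in oxidative stress and 32.2 in osmotic stress. Its changes were 0.67 in ER stress and -0.45 in hypoxia. Taf1d, a subunit of the promoter selectivity factor SL1, was at 58.0, 57.0, 82.5, 38, 169, 50.4 and 58.0 TPM in the same order. It rose in ER stress by 1.53, the second highest value of any member, and was below the control by 0.60 in hypoxia. Ubtf, the architectural factor that binds active ribosomal DNA, stood apart, with 75, 84.3, 92.5, 73.9, 86.6, 123 and 69.7 TPM. Its highest library was oxidative stress (0.71), where it was the highest member, and its changes in hypoxia (-0.02) and ER stress (0.20) were small. Of the 6 members of this group, 1 rose in ER stress and 1 fell in hypoxia, and the group median was 0.62 in ER stress and -0.51 in hypoxia.

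The snoRNP proteins were the group with the lowest values in hypoxia. All 8 were below the control there by more than 1.5-fold, with a median of -0.78, and 2 of the 3 members that fell belong to this group. Nhp2, which binds the H/ACA class of guide RNAs, was at 104 TPM in the control, 118 in glucose depletion, 108 in glutamine depletion, 42.9 in hypoxia, 126 in ER stress, 84.2 in oxidative stress and 93.1 in osmotic stress. Its change in hypoxia, -1.26, was the lowest of the 42, and its value in ER stress, 0.28, was among the smaller ones. Dkc1, dyskerin, the pseudouridine synthase of the same particles, was at 74.7, 86.2, 86.5, 36.8, 165, 53.4 and 68.0 TPM. Dkc1 stood at the threshold in hypoxia (-1.002) and rose in ER stress (1.14). Gar1, another protein of the H/ACA core, was 0.66 below the control in hypoxia and 0.76 above it in ER stress.

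Among the box C/D proteins, which carry the guide RNAs for 2′-O-methylation, Nop58 was the most abundant. It was at 265 TPM in the control, 308 and 386 in glucose and glutamine depletion, 147 in hypoxia, 584 in ER stress, 206 in oxidative stress and 305 in osmotic stress. It rose in ER stress (1.14). Its core partner Nop56, one of the markers of this gene group, was at 160, 163, 173, 82.5, 303, 147 and 95.1 TPM, and its changes of 0.91 in ER stress and -0.95 in hypoxia both stayed within 2-fold. In osmotic stress the partners went apart, with Nop58 at 0.20 and Nop56 at -0.75. Fibrillarin (Fbl), the methyltransferase of the same particle, was at 129, 139, 135, 78.3, 158, 97.0 and 117 TPM. Fbl was 0.30 above the control in ER stress and 0.71 below it in hypoxia. Its near-identical processed pseudogene Gm5812 was listed at 0 in the control and at 29.8 TPM in osmotic stress. Adding that row to the gene moved the osmotic value of Fbl from -0.13 to 0.19, so its direction there is uncertain. The same addition moved Fbl from -0.40 to -0.09 in oxidative stress, from 0.30 to 0.42 in ER stress and from -0.71 to -0.61 in hypoxia. Nolc1, a chaperone of both classes of snoRNP, was at 51.7, 54.5, 57.0, 32.5, 97.2, 46.8 and 40.7 TPM (0.90 in ER stress and -0.65 in hypoxia). Rrp9, a protein of the U3 snoRNP that starts the processing of the small subunit, rose in ER stress (1.08).

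**Figure D3:**
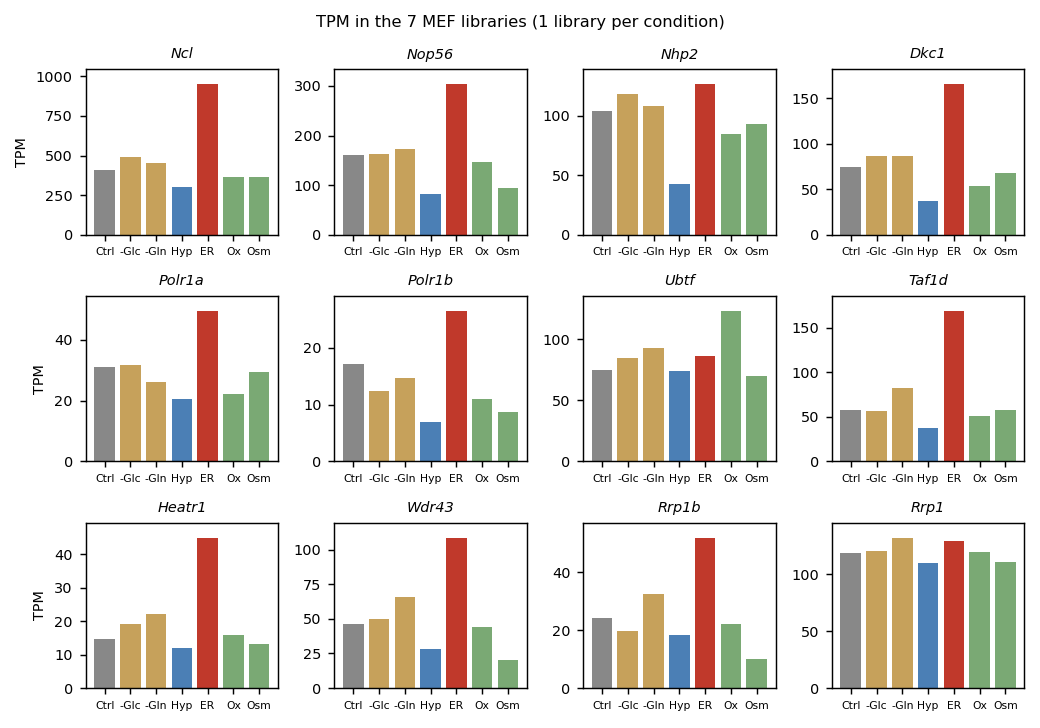
TPM of 12 members in the 7 libraries, 1 bar per library, each panel with its own axis from 0 (Ctrl, control; -Glc and -Gln, glucose and glutamine depletion; Hyp, hypoxia; ER, ER stress; Ox, oxidative stress; Osm, osmotic stress). Ncl, Nop56, Dkc1, Taf1d and Heatr1 share a tallest ER stress bar, Ubtf is tallest in oxidative stress, Wdr43 and Rrp1b are shortest in osmotic stress, and Rrp1 stays between 110 and 132 TPM.

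The factors of the small subunit processome and of 40S maturation held the highest values in ER stress. Of 13 such members, 7 rose there, with a group median of 1.01, and none fell in hypoxia, where the group median was -0.51. Heatr1, a component of the UtpA complex that loads first on the precursor RNA, was at 14.5 TPM in the control, 19.2 in glucose depletion, 22.1 in glutamine depletion, 12.1 in hypoxia, 44.9 in ER stress, 15.8 in oxidative stress and 13.2 in osmotic stress. It had the highest change of all members in ER stress (1.56), in glucose depletion (0.38) and in glutamine depletion (0.57). The other UtpA members measured did not move as one. Wdr43 was at 46.5, 50.1, 66.1, 28.1, 109, 44.3 and 20.5 TPM, and rose in ER stress (1.21) but fell in osmotic stress (-1.14). Utp15 was at 12.2, 11.1, 14.3, 8.53, 25.5, 14.7 and 6.27 TPM (1.01 in ER stress and -0.86 in osmotic stress). Like Wdr43, its lowest library was osmotic stress and not hypoxia. Wdr75 was at 55.6, 72.2, 59.5, 43.7, 128, 43.3 and 50.2 TPM, rose in ER stress (1.18), and was close to the control in osmotic stress (-0.15). Utp4 stayed within 2-fold in all conditions, with 0.76 in ER stress and 0.03 in osmotic stress.

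Utp20, a large scaffold protein of later steps, was at 19.3 TPM in the control, 23 and 22.7 in glucose and glutamine depletion, 13.8 in hypoxia, 37.2 in ER stress, 19.6 in oxidative stress and 22.7 in osmotic stress. It was the highest member in osmotic stress, at 0.22. Ddx10, an RNA helicase, was at 18.0, 17.6, 25.3, 19.4, 48.1, 12.8 and 17.8 TPM. It rose in ER stress (1.37) and was the highest member in hypoxia (0.11), so that with Polr1c it was not below the control there. Rrp12, which takes part in export, rose in ER stress (1.36) and was 0.80 below the control in hypoxia, the widest gap between those conditions among the members. Nop14 also rose in ER stress (1.33). Bysl, which acts late on the 40S precursor, was at 21.1, 21.8, 19.2, 10.8, 23.7, 14.5 and 13.1 TPM, and combined the second lowest value in ER stress (0.16) with -0.91 in hypoxia. Tsr1, also a late factor, was at 59.6, 69.2, 84.8, 39.1, 82.0, 39.5 and 49.96 TPM, about as high in glutamine depletion (0.50) as in ER stress (0.45). Ltv1 and Utp18 were 0.89 and 0.60 above the control in ER stress, and 0.62 and 0.78 below it in hypoxia.

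For the large subunit, 6 of 12 members rose in ER stress (group median 0.95), and all 12 were below the control in hypoxia, none by more than 2-fold (group median -0.49). Nle1, which engages the remodelling machine of the 60S precursor, was at 13.8 TPM in the control, 13.5 and 20.3 in glucose and glutamine depletion, 12.3 in hypoxia, 38 in ER stress, 22.0 in oxidative stress and 8.44 in osmotic stress. It rose in ER stress (1.40) and was also high in oxidative stress (0.64), with its lowest library in osmotic stress (-0.65). Rrp1b was at 24.1, 19.7, 32.6, 18.3, 51.9, 22.2 and 9.96 TPM, and like Wdr43 rose in ER stress (1.07) and fell in osmotic stress (-1.20), the lowest value of any member there. Its relative Rrp1 was the steadiest member, with 119, 120, 132, 110, 129, 119 and 111 TPM. The rRNA methyltransferase Nop2 had the widest gap in this group between ER stress (1.04) and hypoxia (-0.99).

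The PeBoW complex (Pes1, Bop1 and Wdr12), which is needed to process the RNAs of the large subunit, stayed within 2-fold in all 6 conditions. Bop1 was at 47.9, 46.5, 42.1, 31.9, 63.4, 37.5 and 47.1 TPM in the order used above. Wdr12 was at 27.1, 33.4, 24.1, 20.2, 45.1, 21.3 and 21.2 TPM. The changes of Bop1, Pes1 and Wdr12 in ER stress were 0.40, 0.32 and 0.72, below the median of the 42. Of the other large-subunit members, Gnl3 (nucleostemin, 1.24), Rrs1 (1.14) and the helicase Ddx18 (1.00, at the threshold) rose in ER stress, while Ebna1bp2 (0.91) and Nop16 (0.80) did not pass 2-fold.

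The abundant nucleolar proteins nucleolin (Ncl) and nucleophosmin (Npm1) bind precursor RNA and its proteins. Ncl, the other marker of the gene group, was at 410 TPM in the control, 489 in glucose depletion, 454 in glutamine depletion, 301 in hypoxia, 950 in ER stress, 363 in oxidative stress and 366 in osmotic stress. It rose in ER stress (1.21) and was 0.44 below the control in hypoxia. Npm1 was at 1541, 1853, 1626, 1360, 2444, 1292 and 1690 TPM (0.66 in ER stress and -0.18 in hypoxia). Near-identical pseudogenes of Npm1 carried 8.66% of its own TPM in the control, and adding them left its ER stress change at 0.63. Ddx21, a helicase of nucleolus and nucleoplasm, was at 71.2, 83.6, 104, 39.7, 144, 64.0 and 74.0 TPM, which placed it at the threshold in ER stress (1.00) and at -0.83 in hypoxia.

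Glucose and glutamine depletion moved no member past 1.5-fold in either direction. In glucose depletion 3.47% of kept genes were higher by that much and 6.23% lower (1.83% and 2.41% at 2-fold). In glutamine depletion 7.47% were higher and 10.6% lower (3.21% each way at 2-fold). In glucose depletion 30 members were above the control, where 44.5% of kept genes were, with a median of 0.06 beside -0.02. In glutamine depletion 34 were above it, where 38.3% of kept genes were, with a median of 0.17 beside -0.09. The values of single members were small, and the highest in glutamine depletion were Heatr1 (0.57), Ddx21 (0.55) and Nop58 (0.54), while Polr1a (-0.24), Polr1b (-0.21) and Bop1 (-0.18) were lowest.

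The 3-hour treatments left the members near the other genes. In oxidative stress none rose (3.94% of kept genes did) and none fell (4.85%), and 31 were below the control, where 66% of kept genes were. The median of -0.20 lay beside -0.16 for kept genes. Past 1.5-fold, 2 members were higher (Ubtf and Nle1), beside 7.27% of kept genes, and 2 lower (Polr1b and Polr1c), beside 16.2%. In osmotic stress none rose (3.08%) and 2 fell, Rrp1b and Wdr43, which is 4.76% beside 8.76% of kept genes. At 1.5-fold 9 were lower, beside 19.5% of kept genes. The median there was -0.17 beside -0.12. Oxidative stress set directly against osmotic stress showed 4 members higher by more than 2-fold in oxidative stress (9.52%, beside 7.86% of kept genes), namely Nle1 (1.29), Utp15 (1.11), Wdr43 (1.08) and Rrp1b (1.08), and none lower (3.9%). The median of the 42 differences was 0.05. In osmotic stress, members with a mean under 30 TPM in the 5 libraries that were neither the control nor osmotic stress had a median of -0.49 (10 members), and the 32 at higher levels had -0.15. Over all kept genes the same split gave -0.23 and -0.04.

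A wider list of 86 other ribosome biogenesis genes was written by function, with earlier results of these data known. Its medians had the same sign as those of the members in ER stress and hypoxia, and were nearer to 0. In ER stress 11 of the 86 rose (12.8%, beside the 8.6% of kept genes given above) and 79 were above the control, with a median of 0.61. The highest were Rcl1, a protein of the small subunit pathway, from 22.2 to 91.8 TPM (2.00), and the helicase Ddx31, from 7.71 to 22.5 TPM (1.43). In hypoxia 82 of the 86 were below the control, with a median of -0.37, and 1 fell (1.16%, beside 2.64% of kept genes), the rRNA methyltransferase Ftsj3 (62.2 to 29.4 TPM, -1.06). In oxidative stress 1 fell (beside 4.85% of kept genes), Utp6 (61.2 to 29.7 TPM, -1.02). In glutamine depletion 1 rose (beside 3.21%), the Pol I subunit Twistnb (8.61 to 18.6 TPM, 1.03). In glucose depletion none moved past 2-fold.

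In osmotic stress 12 of the 86 fell (14%, beside 8.76% of kept genes) and the median was -0.50, with 2 of the 42 members fallen and a median of -0.17. The count of 12 became 6 when changes were centred on the median of all genes and 2 with a pseudocount of 5 TPM. The lowest were Taf1c, another subunit of SL1, from 7.07 to 1.51 TPM (-1.68), and Rpf2, of the 5S RNP pathway, from 49.8 to 18.0 TPM (-1.42). Of the 10 Pol I genes in the wider list, 5 fell, and besides Taf1c these were Ttf1 (-1.18), Taf1a (-1.16), Polr1e (-1.08) and Znrd1 (-1.07), which were picked for mention after their values were seen. None of the 6 Pol I members fell in osmotic stress. The difference between the lists was not tested.

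**Figure D4:**
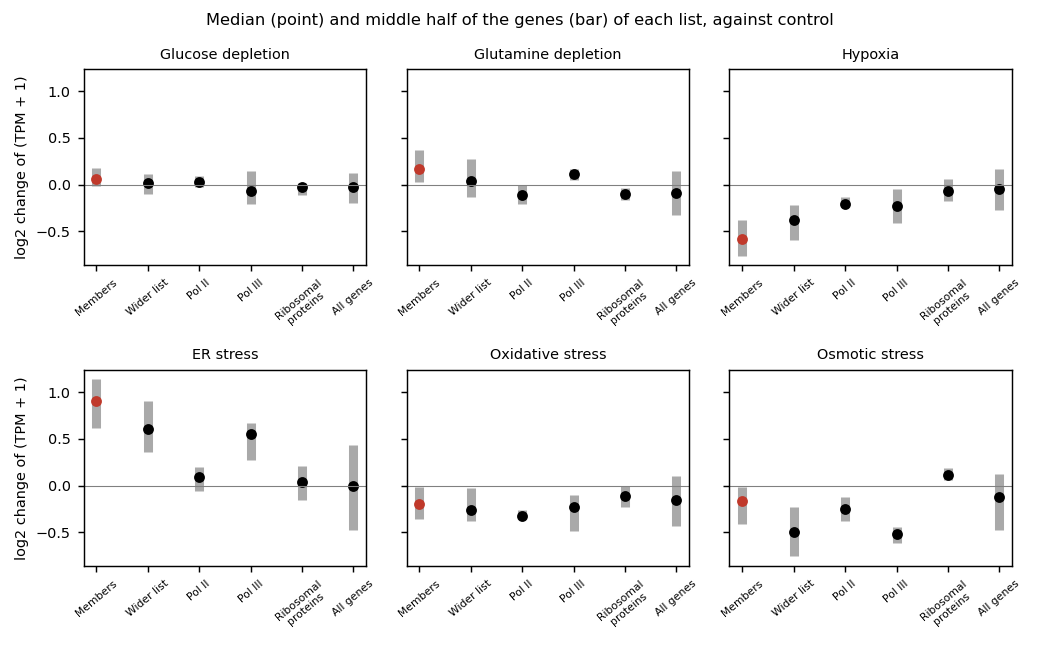
Median (point) and interquartile range (bar) of the log2 change of TPM + 1 against the control for the 42 members, the wider list of 86 genes, 8 Pol II subunits, 10 Pol III subunits, 79 cytosolic ribosomal proteins and all kept genes, in 1 panel per condition. In ER stress the member median (0.91) lies above those of the wider list (0.61), Pol III (0.55), Pol II (0.09) and ribosomal proteins (0.04), and in hypoxia the member median (-0.58) is the lowest.

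Other machinery of gene expression had smaller median changes than the 42 members in ER stress and hypoxia, but Pol III was near part of the pathway in ER stress. In ER stress the median was 0.09 for 8 subunits of RNA polymerase II, 0.55 for 10 subunits of RNA polymerase III, which copies the 5S rRNA and tRNA genes, and 0.04 for the 79 ribosomal protein genes. The Pol III value lay near those of the 6 Pol I members (0.62) and the wider list (0.61). In hypoxia the medians of Pol II, Pol III and ribosomal protein genes were -0.21, -0.23 and -0.07. In osmotic stress 70 of 79 ribosomal protein genes were above the control (median 0.11), while 34 of 42 members were below it (61.6% of kept genes were). All 10 Pol III subunits (median -0.52) and 7 of 8 Pol II subunits (-0.25) were also below it, beside a median of -0.50 for the wider list. The fibroblast markers moved against the members in ER stress, with 7 of 7 below the control and a median of -0.86, the lowest being Col3a1 (-2.07) and Pdgfrb (-1.15), and their part in the member values was not tested.

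Myc, the known activator of these genes, was at 56.8 TPM in the control, 68.0 in glucose depletion, 144 in glutamine depletion, 51.3 in hypoxia, 265 in ER stress, 106 in oxidative stress and 95.4 in osmotic stress. It was highest in the library where the members were highest (2.20) and lowest in the library where most of them were lowest (-0.14). Myc also rose in glutamine depletion (1.33). No member rose by more than 2-fold there, but 34 of 42 were above the control, beside 38.3% of kept genes. The level of Myc was also above the control in oxidative stress (0.89) and osmotic stress (0.74). In these 31 and 34 members were below the control, beside 66% and 61.6% of kept genes. Mxi1, a repressor that competes with Myc for Max, rose in hypoxia from 4.64 to 27.0 TPM (2.31) and lay between 3.33 and 5.76 TPM in the other libraries. Mnt, another such repressor, fell in osmotic stress from 13.4 to 3.11 TPM (-1.81). Max was 0.75 above the control in ER stress, Mxd1 and Mxd4 stayed within 2-fold in all 6 conditions, and Mycn was at 0.69 TPM or less in all libraries. Whether these regulators act on the members was not tested. The 10 members with CACGTG in the promoter window had a median of 0.83 in ER stress and -0.56 in hypoxia, beside 0.91 and -0.58 for all 42. These 10 are part of the 42, and the members sequenced without the motif were not summarised. The values therefore say nothing on whether the motif matters.

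**Figure D5:**
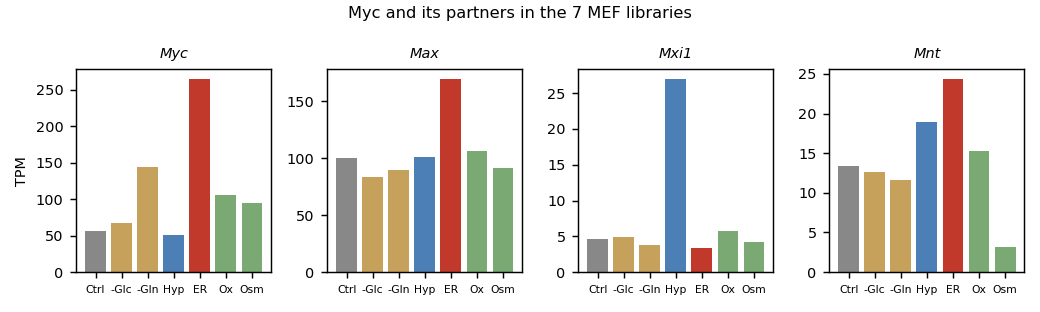
TPM of Myc, its partner Max and the repressors Mxi1 and Mnt in the 7 libraries, 1 bar per library, each panel with its own axis from 0. Myc is tallest in ER stress (265 TPM), Mxi1 in hypoxia (27.0 TPM), and Mnt is shortest in osmotic stress (3.11 TPM).

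Some genes of this group host other RNAs. In the GENCODE M21 annotation, 8 members (Taf1d, Nop56, Nop58, Dkc1, Wdr43, Tsr1, Gnl3 and Ncl) hold 29 snoRNA genes in all, of which 1 overlaps an exon of a protein-coding transcript. Of these hosts, 6 of 8 rose in ER stress, beside 13 of the 34 members without a snoRNA gene and 8.6% of kept genes. The medians of hosts and other members were 1.17 and 0.85. In hypoxia the medians were -0.65 and -0.54. Host genes outside this group were not counted and the split was chosen after seeing the data, so it describes these members only. A retained-intron transcript is annotated for 30 members and a nonsense-mediated decay transcript for 17. Gene TPM sum over all annotated transcripts, so coding and non-coding transcripts of a member cannot be told apart in these values.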

How the data were processed

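RNA-seq libraries of polyadenylated RNA (stranded, paired-end) came from 7 MEF cultures, 1 per condition, grouped by their labels. The authors estimated TPM with Kallisto (version 0.43.1 in the submitters' processing notes) against Ensembl release 90 transcripts of GRCm38 and deposited the gene sums of these TPM. TPM are estimates that share reads among similar transcripts, and they sum to a fixed total, so a rise of some genes lowers the share of others.

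The deposited TPM were put on the log2(TPM + 1) scale, from which the control value was taken away. A mean of 2 TPM or more was asked of a gene (12909 of 49382 passed), a filter chosen for this work. A change past 2-fold from the control was called, as the study did for its stress conditions. With 1 library per condition no test was made. The members, the wider list (86 of 87 genes analysed, 1 not analysed here) and the other lists were chosen with earlier results of these data known. A gene of the wider list on duplicate rows was counted once. Values in all libraries are given for Ncl, Nop56, Npm1, Fbl, Nolc1, the Pol I members, and the 3 highest and 3 lowest members per condition. From the wider list, the 2 highest and 2 lowest genes past 2-fold were named, and Myc, its partners and the treatment genes were listed by name. ER stress against hypoxia, the added pseudogene rows, the sum without Npm1, the split by level, and the splits by snoRNA gene and by motif were chosen after seeing the data.

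Gene types and transcripts came from GENCODE M21. Copies were sought with blastn 2.17.0 (at least 95% identity over 300 bases), which found them for 8 members. The steps ran in Python 3.11.15 with pandas 2.3.3, numpy 2.4.6 and, for plots, matplotlib 3.10.9, and were tested on simulated data. Other settings tried were a pseudocount of 0.1 or 5 TPM, no filter or a mean of 10 TPM, changes centred on the median gene, tables without mitochondrially encoded or without ribosomal protein genes, thresholds of 1.5-fold and 3-fold, protein-coding genes as background, and the glucose depletion library as the reference.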

Additional observations from a re-analysis of the deposited data

Results flagged for a closer look

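Members that moved past 2-fold in opposite directions in different conditions were singled out, and the differences were not tested because each condition had 1 library. Dkc1 was at -1.002 in hypoxia and 1.14 in ER stress. Wdr43 was at 1.21 in ER stress and -1.14 in osmotic stress. Rrp1b was at 1.07 in ER stress and -1.20 in osmotic stress. The medians of the 42 members also had opposite signs in ER stress (0.91) and in hypoxia (-0.58). The ER stress values and their opposites share the control library.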

How the results depend on the processing

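Medians and counts of the members and the wider list were recomputed. Of these, 430 stayed within 0.1 (log2) or, for counts, within 1.5 times, and 48 moved further. Part of the 430 could not move. All members passed every filter tried, so the filter settings and the protein-coding background left their medians and their counts past the threshold fixed. Centring could not change the counts of members above the median of all genes. The 430 is therefore not a measure of stability. Of 980 recomputed changes of 28 named members, 816 stayed within 0.1 and 164 moved further. Of the recomputed shares of all genes past the threshold, 89 stayed within 1.5 times and 81 moved further. No change past 2-fold and no median turned its sign, while Fbl in osmotic stress, within 2-fold, did so with its pseudogene added, as did other changes near 0 under some settings. The median of the members lay between 0.84 and 0.91 in ER stress, between -0.65 and -0.53 in hypoxia, and between 1.34 (pseudocount of 5 TPM) and 1.52 for ER stress against hypoxia. The median in osmotic stress was -0.045 after centring and -0.34 with the glucose depletion library as the reference, and in oxidative stress it was -0.047 after centring. Members above the median of all genes numbered 8 in osmotic and 11 in oxidative stress without the filter, and 11 in oxidative stress with the glucose depletion reference. At 1.5-fold, 33 members were higher in ER stress, 2 higher and 2 lower in oxidative stress, 20 lower in hypoxia, 9 lower in osmotic stress, and 1 lower in oxidative against osmotic stress. Of the 12909 kept genes, 1335 were lower at 1.5-fold in oxidative against osmotic stress. At 3-fold the member counts were 0 in ER stress, hypoxia, osmotic stress and oxidative against osmotic stress, and 15 in ER stress against hypoxia. The shares of all genes at 3-fold are not given here. With a pseudocount of 5 TPM, 1 member was lower in hypoxia, 1 in osmotic stress, and 1 was higher in oxidative against osmotic stress. With the glucose depletion reference 1 was lower in osmotic stress. The 19 members risen in ER stress became 14 with a pseudocount of 5 TPM, 14 with that reference and 16 without mitochondrially encoded genes.

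In the wider list at 1.5-fold, 48 genes were higher in ER stress, 71 in ER stress against hypoxia, 4 in glutamine depletion and 21 in oxidative against osmotic stress, and 23 were lower in hypoxia, 32 in osmotic and 4 in oxidative stress. At 3-fold these counts were 1, 14, 0, 0, 0, 1 and 0. Of the 12909 kept genes, 2447 (19%), 2868, 964 (7.47%) and 2038 were higher at 1.5-fold in those comparisons, in that order. Lower were 1046 (8.1%), 2522 (19.5%) and 2092 (16.2%). At the other settings the shares of all genes are not given here, and those counts describe the list only. With a pseudocount of 5 TPM the counts of the list past 2-fold were 0 in glutamine depletion, hypoxia and oxidative stress. They were 1 in oxidative against osmotic stress and 2 in osmotic stress, and 2 were lower in hypoxia with 0.1 TPM. With the glucose depletion reference they were 0 in glutamine depletion, 2 in hypoxia and 0 in oxidative stress. Centring left 6 in osmotic stress and 0 in oxidative stress, and without mitochondrially encoded genes 0 fell in oxidative stress. Thresholds and the pseudocount act on the counts by construction, and the cause of the other shifts was not tested. No paired analysis was possible because each condition had 1 library, and no replicate could be left out.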
